A study of Mus musculus with 24 samples.

Results

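Long-chain fatty acids enter metabolism only after they have been joined to coenzyme A, and the transcripts described here encode enzymes that carry out this step in the mouse kidney. The set holds 8 of the 55335 genes in the count files. It was taken as a list of names, the long-chain acyl-CoA synthetases Acsl1, Acsl3, Acsl4, Acsl5 and Acsl6 and the fatty acid transport proteins Slc27a1, Slc27a2 and Slc27a4, and it was compared between the groups given by the description of each sample. All 8 genes were among the 16092 tested, which are the genes with at least 1 CPM (read counts scaled to library size by edgeR's TMM method) in at least 1 kidney.

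The study deleted Pex5, the receptor that brings enzymes into the peroxisome, from the renal tubule of adult mice on a C57BL/6J background. The cKO mice were Pex5 lox/lox/Pax8-rtTA/LC1, in which the Pax8 promoter drives the DOX-dependent activator in tubular cells and LC1 carries the Cre recombinase, and the Ctrl mice were littermates described as Pex5 lox/lox alone. Both genotypes received DOX (doxycycline) over 2 weeks starting when they were 8 weeks old. Whole kidneys were taken 4 weeks after its end, at 14 weeks. There were 24 kidneys, 6 from male controls (Ctrlm), 6 from male knockouts (cKOm), 6 from female controls (Ctrlf) and 6 from female knockouts (cKOf). Cells other than tubular cells keep an intact Pex5, and in whole kidney RNA fewer cells of a type cannot be told apart from less RNA per cell.

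An acyl-CoA synthetase uses ATP to form the thioester, which traps the fatty acid inside the cell and commits it to use. The resulting acyl-CoA is oxidised in mitochondria or peroxisomes, or is built into triglycerides, phospholipids and cholesterol esters. Cells of the proximal tubule burn fatty acids as fuel for reabsorption, and the synthetases differ in the membranes they occupy and the fatty acids they prefer. ACSL1 sits on mitochondrial and endoplasmic reticulum membranes and is a classical target of PPAR-alpha. ACSL3 coats nascent lipid droplets, ACSL4 prefers arachidonate, ACSL5 is best known from intestine and liver, and ACSL6 from brain. SLC27A1, SLC27A2 and SLC27A4 (FATP1, FATP2 and FATP4) combine fatty acid uptake with acyl-CoA synthetase activity towards long and very long chains, and SLC27A2 is found in peroxisomes as well as in the endoplasmic reticulum.

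The sequences around the transcription starts of Slc27a2, Acsl1 and Acsl3 are shown because these are the member with the highest level and the members with the largest called changes. RefSeq (GRCm38.p6) gave 13 start regions of 300 bases for the 8 members, each from 250 bases before to 50 bases after a start. They were searched on both strands for 3 motifs, chosen with these sequences in view. These were AGGTCA, the hexamer of nuclear receptors, AGGNCAAAG, the first letters of the direct repeat that PPAR-alpha binds with its partner RXR, and TCACNCCAC, a sterol regulatory element. The first can lie inside the second. All 3 printed genes lie on the plus strand, capitals mark a motif, and a sequence without capitals held none of the 3.

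Slc27a2, chr2:126552774-126553073: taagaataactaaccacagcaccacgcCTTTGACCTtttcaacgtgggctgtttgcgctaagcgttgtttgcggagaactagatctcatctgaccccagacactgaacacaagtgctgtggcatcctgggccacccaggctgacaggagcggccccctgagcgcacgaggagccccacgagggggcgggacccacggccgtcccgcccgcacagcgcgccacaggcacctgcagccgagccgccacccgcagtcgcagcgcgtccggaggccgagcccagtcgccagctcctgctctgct

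Acsl1 first start, chr8:46470787-46471086: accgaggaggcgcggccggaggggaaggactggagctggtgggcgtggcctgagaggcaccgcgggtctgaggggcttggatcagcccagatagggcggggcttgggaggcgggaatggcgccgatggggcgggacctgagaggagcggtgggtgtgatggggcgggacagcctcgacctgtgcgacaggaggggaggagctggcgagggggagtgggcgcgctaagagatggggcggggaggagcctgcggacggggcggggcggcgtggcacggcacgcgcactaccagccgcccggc

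Acsl1 second start, chr8:46490716-46491015: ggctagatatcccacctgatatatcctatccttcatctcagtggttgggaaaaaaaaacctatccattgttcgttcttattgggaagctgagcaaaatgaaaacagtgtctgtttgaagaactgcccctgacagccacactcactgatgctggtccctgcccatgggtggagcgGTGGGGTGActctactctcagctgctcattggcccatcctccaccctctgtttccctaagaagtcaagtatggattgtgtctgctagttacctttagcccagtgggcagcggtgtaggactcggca

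Acsl3, chr1:78657575-78657874: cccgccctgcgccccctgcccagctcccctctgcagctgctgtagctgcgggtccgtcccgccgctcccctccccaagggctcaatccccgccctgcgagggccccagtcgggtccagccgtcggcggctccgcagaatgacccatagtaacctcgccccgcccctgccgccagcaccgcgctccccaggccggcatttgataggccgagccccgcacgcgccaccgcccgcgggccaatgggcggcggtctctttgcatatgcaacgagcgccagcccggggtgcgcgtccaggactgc

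The Slc27a2 region held the direct repeat letters on the minus strand, 223 bases before the start, and the hexamer within them. They were present in 2.04% of all 32851 RefSeq start regions of the same length, and in 1 of the 13 regions of the members. The region of the second Acsl1 start held the sterol element on the minus strand, 76 bases before the start, a motif present in 1.24% of all start regions. The hexamer was found in 16.3% of all start regions, and among the members in Slc27a2 and in 1 Acsl6 region, where it lay 189 and 167 bases before the start. A match says only that these letters are present.

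The 8 genes lie on 6 chromosomes of GRCm38. Acsl1 (ENSMUSG00000018796) spans 8:46471037-46536051, Acsl3 (ENSMUSG00000032883) 1:78657825-78707743, Acsl4 (ENSMUSG00000031278) X:142317993-142390535, Acsl5 (ENSMUSG00000024981) 19:55251938-55297720 and Acsl6 (ENSMUSG00000020333) 11:54303798-54364756. Slc27a1 (ENSMUSG00000031808) spans 8:71568882-71587302, Slc27a2 (ENSMUSG00000027359) 2:126552407-126588243 and Slc27a4 (ENSMUSG00000059316) 2:29802634-29817522. Acsl4 lies on the minus strand and the other 7 on the plus strand. Counts were made over the exons of each gene, so isoforms and the separate starts of Acsl1 were not resolved. Exons of Acsl5 overlapped those of Zdhhc6 on the opposite strand over 8.31% of their length, and exons of Acsl3 overlapped Utp14b on the same strand over 5.6%. The strand setting of the counting is not given in the sources used here, so reads in these stretches could not be assigned with certainty. Of the windows of 50 bases along the transcripts of a member, between 0% (Acsl4 and Slc27a4) and 9.8% (Slc27a2, all in the antisense Gm26697) also occurred in another gene.

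Depth was 19376152 to 28470831 reads on genes per kidney (median 21592602). Pex5 itself was at 54.3 ± 4.63 CPM in Ctrlm against 43.7 ± 1.94 in cKOm, and at 50.3 ± 6.97 in Ctrlf against 43.6 ± 3.55 in cKOf (mean ± SD, n = 6 each). Its range was 49.1 to 62.8 CPM in Ctrlm and 41.8 to 47.3 in cKOm, without overlap, and 43 to 61.7 in Ctrlf and 38 to 48.5 in cKOf, with overlap. The log2 fold change of Pex5 was -0.31 in males (edgeR adjusted p = 0.0219) and -0.21 in females (0.177). The male minus the female value was -0.10 (edgeR adjusted p = 0.754). These counts cover all exons and all cell types of the kidney. The study also found some full-length Pex5 mRNA and PEX5 protein left in cKOf kidneys, and proposes that excision was incomplete there. Its electron microscopy found almost no peroxisomes in proximal tubules of either knockout sex. It also does not exclude that peroxisomal functions in the kidney differ by sex. Transcripts of hepatocytes set some male kidneys apart. The sum of 12 hepatocyte markers (Alb and others, all 12 detected) ranged from 134 to 1070 CPM in Ctrlm (median 756) and from 112 to 577 in cKOm (median 147). In females it ranged from 122 to 163 CPM in Ctrlf (median 136) and from 90.3 to 222 in cKOf (median 125). Kidneys Ctrlm 1 to 4 and cKOm 4 lay above 550 CPM, and the male values of the 8 members are also given without these 5 kidneys, a choice made after seeing the data. The gene lists, shares and likeness values below were not recomputed without them, while the male calls over all genes fell from 1456 to 599. Their part in the results was not tested beyond these values.

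In males, 5 of the 8 transcripts differed between cKOm and Ctrlm. Acsl1, Acsl3, Acsl4 and Slc27a1 were higher in cKOm, between 1.56-fold and 2.42-fold, and Slc27a2 was lower at 0.708-fold. Among all tested genes, 9.05% were called in this comparison (adjusted p under 0.05, edgeR's quasi-likelihood test), 4.14% higher and 4.9% lower. The same 5 transcripts had no overlap between the 6 cKOm and the 6 Ctrlm values, which held for 7.38% of all tested genes. The median log2 fold change was 0.65 over the members and 0.01 over all tested genes. Acsl5, Acsl6 and Slc27a4 did not pass the threshold.

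**Figure D1:**
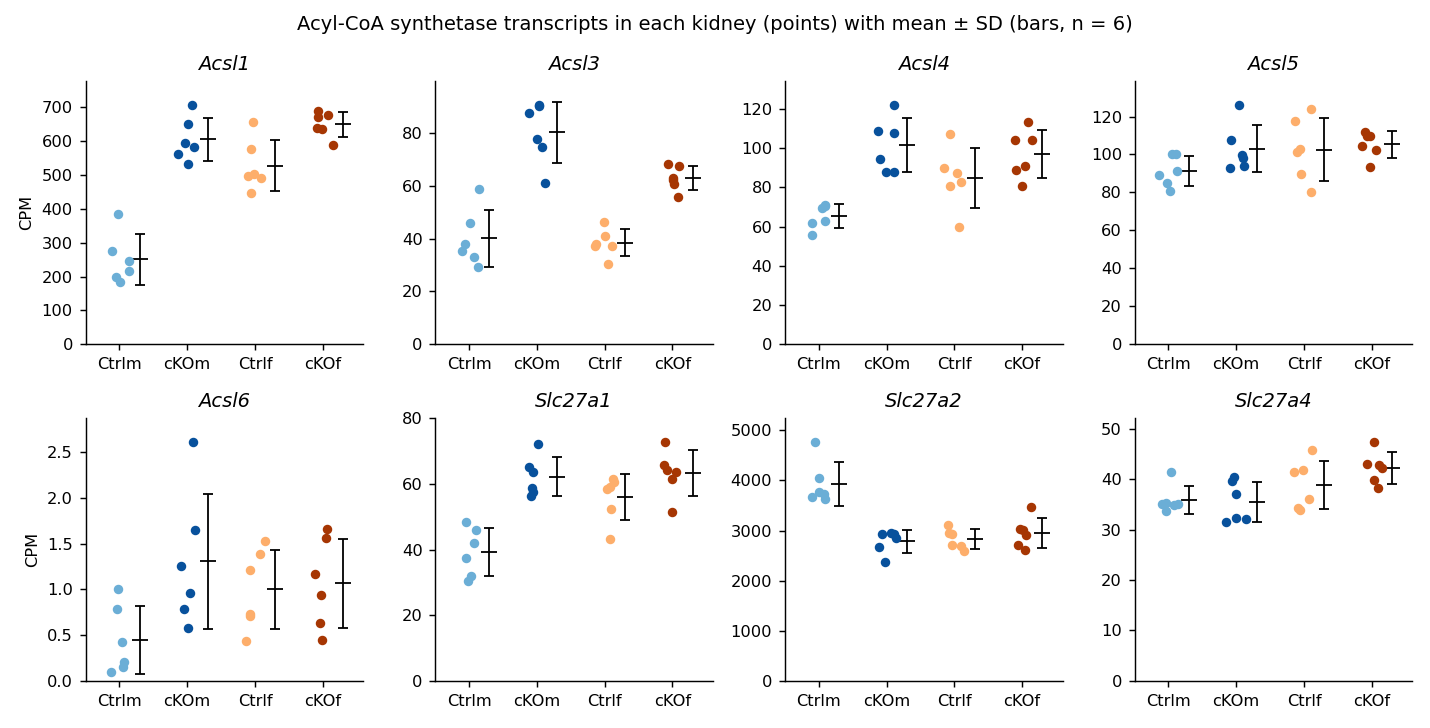
Level of each of the 8 transcripts in every kidney (vertical axis, TMM-scaled CPM, linear from 0; points, 1 kidney each) with the group mean and SD (n = 6) for Ctrlm, cKOm, Ctrlf and cKOf. For Acsl1 the Ctrlm kidneys lie below all others, for Slc27a2 they lie above all others, and for Acsl3 each knockout group lies above the control group of its sex.

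Acsl1, which feeds fatty acids to mitochondrial oxidation, ranged from 183 to 386 CPM in Ctrlm (median 231) and from 532 to 707 in cKOm (median 589). The highest Ctrlm value belonged to Ctrlm 6, the next was 274 in Ctrlm 3, and no Ctrlm kidney reached the lowest cKOm kidney. Its log2 fold change was 1.27 (standard error 0.13, edgeR adjusted p = 2.1e-07). The separation of the groups gave p = 0.00216 in a two-sided exact permutation test (6 against 6), the smallest value that this design allows, and the same p holds for Acsl3, Acsl4, Slc27a1 and Slc27a2.

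Acsl3, the synthetase of lipid droplets, ranged from 29.4 to 58.8 CPM in Ctrlm (median 36.7) and from 61.1 to 90.7 in cKOm (median 82.6). Again Ctrlm 6 was the highest control, and its 58.8 CPM lay just under the lowest knockout, cKOm 6. On the log2 scale Acsl3 rose by 1.00 (standard error 0.13, edgeR adjusted p = 8.1e-06).

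Acsl4, which activates arachidonate for membrane phospholipids, ranged from 55.8 to 70.9 CPM in Ctrlm (median 66.2) and from 87.9 to 122 in cKOm (median 101). All cKOm kidneys lay above all controls. Its log2 fold change was 0.64 (standard error 0.11, edgeR adjusted p = 4.2e-04).

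Slc27a1, a transporter and synthetase best known from muscle and fat, ranged from 30.4 to 48.4 CPM in Ctrlm (median 39.7) and from 56.2 to 72.1 in cKOm (median 61.2). Its log2 fold change was 0.66 (standard error 0.11, edgeR adjusted p = 2.4e-04). The 4 members that rose thus include 3 of the 5 Acsl genes and 1 of the 3 Slc27a genes.

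Slc27a2, the very long chain synthetase of peroxisome and endoplasmic reticulum, was the one member that fell. It ranged from 3627 to 4775 CPM in Ctrlm (median 3745) and from 2376 to 2956 in cKOm (median 2890). Ctrlm 3 stood highest at 4775 CPM, and the lowest control still exceeded the highest knockout. Slc27a2 changed by -0.50 on the log2 scale (standard error 0.08, edgeR adjusted p = 1.4e-04). Markers of the proximal tubule, where Slc27a2 is mainly expressed in the kidney, moved in the same direction in males. The sum of 8 such markers, all detected, ranged from 8977 to 10250 CPM in Ctrlm and from 6788 to 7571 in cKOm. Of the 8, 5 were called lower in cKOm, as were 4.9% of all tested genes. In females the sum had a median of 8521 CPM in Ctrlf and 8317 in cKOf, 0 of the 8 were called, and Slc27a2 was not lower. The part of these markers in the Slc27a2 value was not tested.

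Acsl5 ranged from 80.9 to 100 CPM in Ctrlm (median 90.2) and from 93.1 to 126 in cKOm (median 99), with overlapping groups and a log2 fold change of 0.18 (interval of 2 standard errors -0.01 to 0.37, edgeR adjusted p = 0.377). Slc27a4, a synthetase of the endoplasmic reticulum needed for the skin barrier, ranged from 33.8 to 41.4 CPM in Ctrlm (median 35) and from 31.5 to 40.4 in cKOm (median 34.7). Its log2 fold change was -0.02 (interval -0.19 to 0.16, edgeR adjusted p = 0.963). Acsl6, the brain synthetase, was close to the limit of detection, with 2 to 52 reads per kidney over all groups. It ranged from 0.0991 to 0.999 CPM in Ctrlm (median 0.317) and from 0.58 to 2.61 in cKOm (median 1.1). Its fitted log2 fold change was 1.53 with a standard error of 0.48 (edgeR adjusted p = 0.0684), and its groups overlapped.

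Without the 5 kidneys rich in hepatocyte transcripts, the same 5 members were called in males, on 2 Ctrlm and 5 cKOm kidneys. Over all genes tested in that fit 599 were called, 172 higher and 427 lower. Log2 fold changes were then 1.04 for Acsl1 (edgeR adjusted p = 0.00215), 0.76 for Acsl3 (0.0203), 0.69 for Acsl4 (0.0391), 0.65 for Slc27a1 (0.0414) and -0.52 for Slc27a2 (0.0123). Acsl5 at 0.055 (0.927), Acsl6 at 1.23 (0.476) and Slc27a4 at -0.13 (0.77) were not called. Within Ctrlm, Acsl1 was 386 CPM in Ctrlm 6 and 198 in Ctrlm 5, the kidneys with 134 and 203 CPM of hepatocyte markers, and between 183 and 274 in the other 4. Slc27a2 was 3672 and 4044 CPM in Ctrlm 6 and Ctrlm 5, and between 3627 and 4775 in the other 4.

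**Figure D2:**
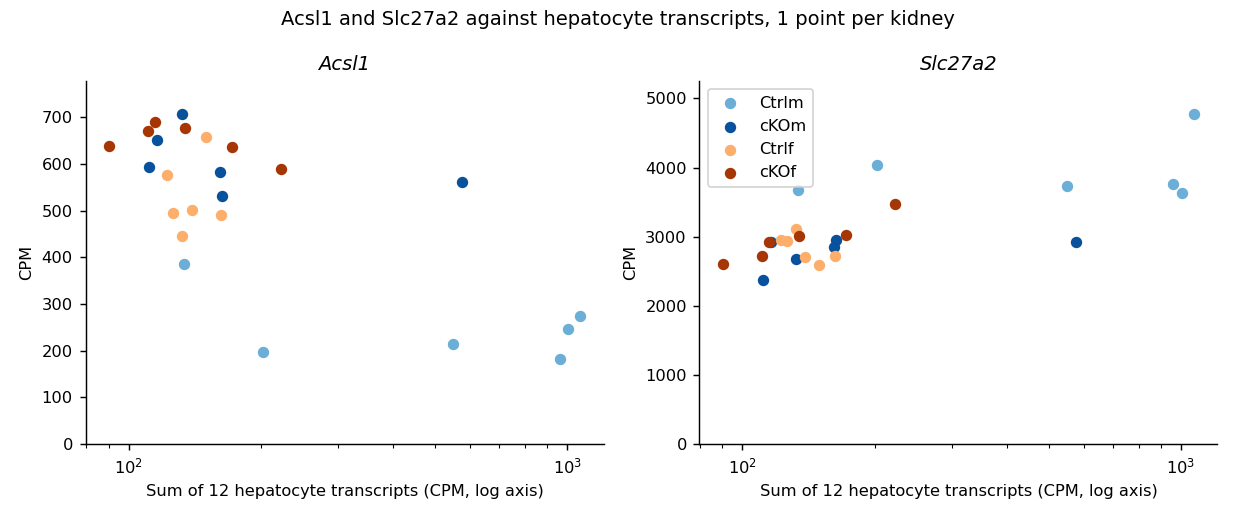
Acsl1 (left) and Slc27a2 (right) in CPM (vertical axes, linear from 0) against the sum of 12 hepatocyte transcripts in CPM (horizontal axes, logarithmic), 1 point per kidney, coloured by group. The Ctrlm kidneys with 134 and 203 CPM of hepatocyte transcripts have Acsl1 levels of 386 and 198 CPM, below every cKOm kidney, and Slc27a2 levels of 3672 and 4044 CPM, above every cKOm kidney.

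Adipocytes express Acsl1 too, and their transcripts were uneven within groups. The sum of 8 adipocyte markers, 7 of them tested, ranged from 0.678 to 58.7 CPM in Ctrlm and 0.754 to 86.7 in cKOm, and from 0.0476 to 252 in Ctrlf and 0.479 to 42 in cKOf. The kidneys with the highest sums among controls, Ctrlm 6 and Ctrlf 6, also had the highest Acsl1 of their groups, at 386 and 657 CPM. Among cKOm the kidney with the highest sum, cKOm 1, had 583 CPM of Acsl1, and cKOm 5, with 1.83 CPM of adipocyte markers, had 707. The part of fat in the Acsl1 values was not tested beyond a fit with an adipocyte score as a covariate. In that fit the log2 fold change of Acsl1 was 1.31 in males (edgeR adjusted p = 5.8e-08) and 0.26 in females (0.273).

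In females, 1 of the 8 transcripts differed between cKOf and Ctrlf, and this was Acsl3. Among all tested genes 0.851% were called, 0.391% higher and 0.46% lower, and 0.559% had no overlap between the groups. Acsl3 ranged from 30.5 to 46.3 CPM in Ctrlf (median 37.8) and from 55.7 to 68.3 in cKOf (median 62.6). Every cKOf kidney lay above every Ctrlf kidney, and the transcript rose by 0.71 on the log2 scale (standard error 0.13, edgeR adjusted p = 6.9e-04). The two-sided exact permutation test gave p = 0.00216 (n = 6 per group), the smallest value possible.

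Acsl1 ranged from 446 to 657 CPM in Ctrlf (median 499) and from 589 to 690 in cKOf (median 654). The groups overlapped through Ctrlf 6 at 657 CPM, and 3 of the 6 cKOf kidneys lay above all controls. The log2 fold change was 0.30 (interval of 2 standard errors 0.04 to 0.56, edgeR adjusted p = 0.228). The exact two-sided permutation test of this single transcript gave p = 0.013, or 0.0346 after adjustment over the 32 tests of 8 members in 4 pairs of groups, so the call differed between the test across all genes and the test of the members. The same held for Acsl6 in males, with an exact permutation p of 0.0217 (0.0495 adjusted over the 32 tests).

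The other 6 members did not pass the threshold in females either. Acsl4 ranged from 60 to 108 CPM in Ctrlf (median 85) and from 80.6 to 113 in cKOf (median 97.7), with a log2 fold change of 0.20 (interval -0.02 to 0.42). Slc27a1 ranged from 43.1 to 61.6 CPM in Ctrlf (median 58.9) and from 51.5 to 72.8 in cKOf (median 63.9), with a log2 fold change of 0.18 (interval -0.04 to 0.40). The upper ends of these female intervals lay close to the lower ends of the male ones, 0.42 for Acsl4 and 0.44 for Slc27a1.

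Slc27a2 ranged from 2588 to 3119 CPM in Ctrlf (median 2825) and from 2611 to 3467 in cKOf (median 2964), with a log2 fold change of 0.06 (interval -0.10 to 0.22). The whole female interval lay above the male one, which ran from -0.66 to -0.34. Fitted log2 fold changes were 0.12 for Slc27a4, 0.04 for Acsl5 and 0.10 for Acsl6, each with overlapping groups, and the edgeR adjusted p of the 6 members was between 0.41 and 0.952. The median log2 fold change of the 8 members in females was 0.15, against 0.00 over all tested genes.

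**Figure D3:**
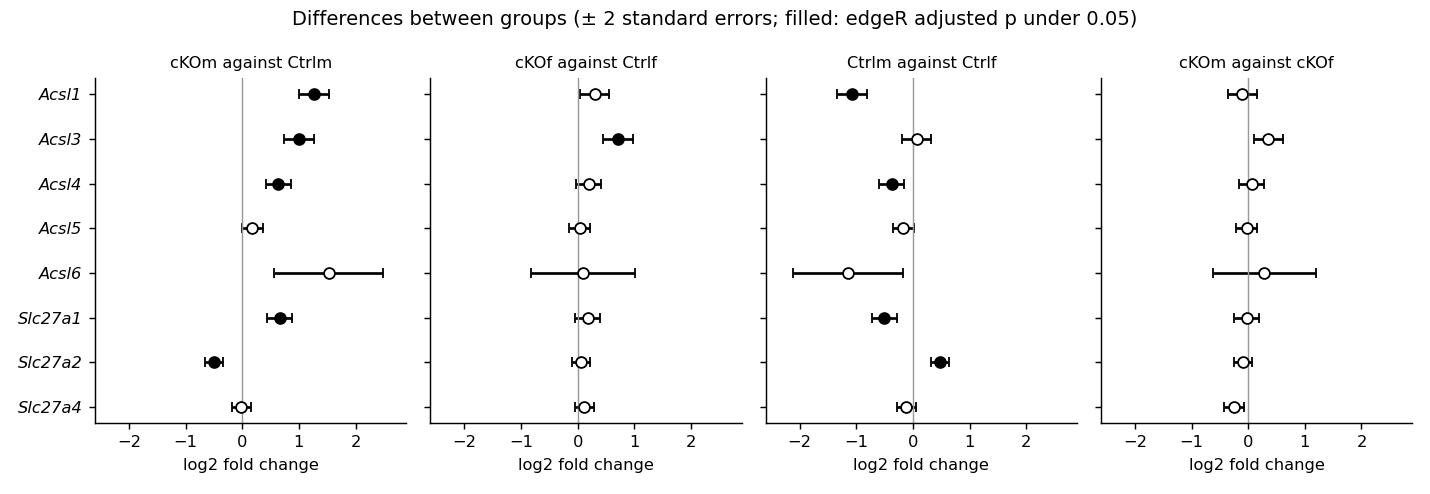
Log2 fold change of each transcript (horizontal axes) in cKOm against Ctrlm, cKOf against Ctrlf, Ctrlm against Ctrlf and cKOm against cKOf, with bars of 2 standard errors from edgeR and filled points for an adjusted p under 0.05. In males 5 points are filled, in females 1 (Acsl3), between control sexes 4 and between knockout sexes none. The first and the third panel share the Ctrlm kidneys.

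The male and the female change were compared by the interaction of genotype and sex. Sex and the extent of the Pex5 deletion cannot be told apart in this comparison. The interaction passed the threshold for 2 of the 8 members, Acsl1 and Slc27a2, against 2.31% of all tested genes. The male minus the female log2 fold change was 0.97 for Acsl1 (standard error 0.18, edgeR adjusted p = 0.00231) and -0.56 for Slc27a2 (standard error 0.11, edgeR adjusted p = 0.00445). It was 0.44 for Acsl4 (edgeR adjusted p = 0.171) and 0.48 for Slc27a1 (0.112), which did not pass. For Acsl3, called in both sexes, the difference was 0.29 (interval -0.08 to 0.65, edgeR adjusted p = 0.526). Without the 5 kidneys rich in hepatocyte transcripts the Acsl1 difference was 0.74 and lost its call (edgeR adjusted p = 0.0899), while that of Slc27a2 was -0.58 (0.0357). Without Ctrlf 4, the control female with the lowest Acsl4 and Slc27a1, 4 members were called, with 0.51 for Acsl4 (0.0435) and 0.53 for Slc27a1 (0.0499). Fits with 1 mouse left out called 282 to 476 of all genes for the interaction.

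Control kidneys of males and females differed in 4 of the 8 transcripts, where 16.8% of all tested genes were called, 8.71% higher and 8.11% lower in Ctrlm. This comparison shares the Ctrlm kidneys with that of cKOm against Ctrlm, so the values of both are set side by side and nothing is read from their likeness. Acsl1 was lower in Ctrlm than in Ctrlf, with a log2 difference of -1.08 (standard error 0.13, edgeR adjusted p = 5.2e-07), where cKOm against Ctrlm gave 1.27. Slc27a2 was higher in Ctrlm, by 0.47 (0.08, 7.5e-05), where cKOm against Ctrlm gave -0.50. Proximal tubule markers summed to 8977 to 10250 CPM in Ctrlm (median 9393) and 8029 to 9172 in Ctrlf (median 8521). Of these 8 markers, 6 were called between control sexes, as were 10 of the 12 hepatocyte markers, counted in either direction. Their part was not tested. Slc27a1 was lower in Ctrlm with -0.51 (0.11, 0.00143) and Acsl4 with -0.38 (0.11, 0.0185). The groups did not overlap for Acsl1 and Slc27a2, as for 7.35% of all tested genes, and overlapped for the other 6.

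Acsl3, Acsl5, Acsl6 and Slc27a4 were not called between control sexes. Levels of Acsl3 were 40.1 ± 10.7 CPM in Ctrlm and 38.4 ± 5.14 in Ctrlf (SD, n = 6), with a log2 difference of 0.06 (interval -0.20 to 0.32, edgeR adjusted p = 0.812). Acsl5 and Slc27a4 differed between control sexes by -0.17 and -0.12, and Acsl6 by -1.14 with a standard error of 0.49 (edgeR adjusted p = 0.116). Without the 5 kidneys, 2 members were called between control sexes, Acsl1 at -0.83 (0.00322) and Slc27a2 at 0.47 (0.00683), where 1570 of all genes were called. Slc27a1 at -0.48 (0.0616) and Acsl4 at -0.40 (0.152) were then not called. Without Ctrlf 1, the control female with the highest Acsl4, the Acsl4 difference was -0.30 (edgeR adjusted p = 0.0656).

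Between cKOm and cKOf none of the 8 transcripts was called by edgeR, where 8.14% of all tested genes were called and 6.77% had no overlap. At an unadjusted p under 0.05 edgeR gave 2 members, Acsl3 and Slc27a4, and limma-voom and DESeq2 also gave 2 each and called none. The share of all tested genes at this unadjusted threshold is not given, so nothing is read from such counts here or below. The two-sided exact permutation test gave p = 0.013 for Acsl3 and 0.0108 for Slc27a4, both 0.0346 after adjustment over the 32 tests, so both passed there. Acsl3 was 80.3 ± 11.6 CPM in cKOm and 62.9 ± 4.62 in cKOf, with a log2 difference of 0.35 (standard error 0.13, edgeR adjusted p = 0.0912). It was called with each genotype fitted alone (edgeR adjusted p = 0.0215), with a liver score as covariate (0.0411) and without cKOm 6 (0.044). Slc27a4 was 35.5 ± 4.02 CPM in cKOm and 42.3 ± 3.17 in cKOf, with a log2 difference of -0.25 (0.09, 0.0736), and was called without cKOm 1 (0.0493). The difference for Acsl1 was -0.10 (interval -0.36 to 0.15) and for Slc27a2 -0.09 (interval -0.25 to 0.07).

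Levels of different genes can be compared only per length, and the following levels are CPM per kb of annotated exon, as means over the 24 kidneys with the SD. Slc27a2 was by far the highest at 833 ± 149, followed by Acsl1 at 48.5 ± 16.2. Acsl5 was at 20.7 ± 2.5, Acsl4 at 16.1 ± 3.41, Acsl3 at 12.7 ± 4.46, Slc27a1 at 9.45 ± 2.0 and Slc27a4 at 8.64 ± 1.02. Acsl6 was at 0.0962 ± 0.0593. The intervals of 1 SD overlapped for the neighbours Acsl5 and Acsl4, Acsl4 and Acsl3, Acsl3 and Slc27a1, and Slc27a1 and Slc27a4. The order varied between groups, since Slc27a1 at 9.58 stood above Acsl3 at 8.81 in Ctrlf, and Slc27a4 at 8.14 above Slc27a1 at 6.74 in Ctrlm. In Ctrlm the mean of Acsl1 was 23.9 ± 7.07, close to that of Acsl5 at 18.8 ± 1.63, whereas in cKOm Acsl1 stood at 57.7 ± 6.08 and Acsl5 at 21.2 ± 2.55.

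**Figure D4:**
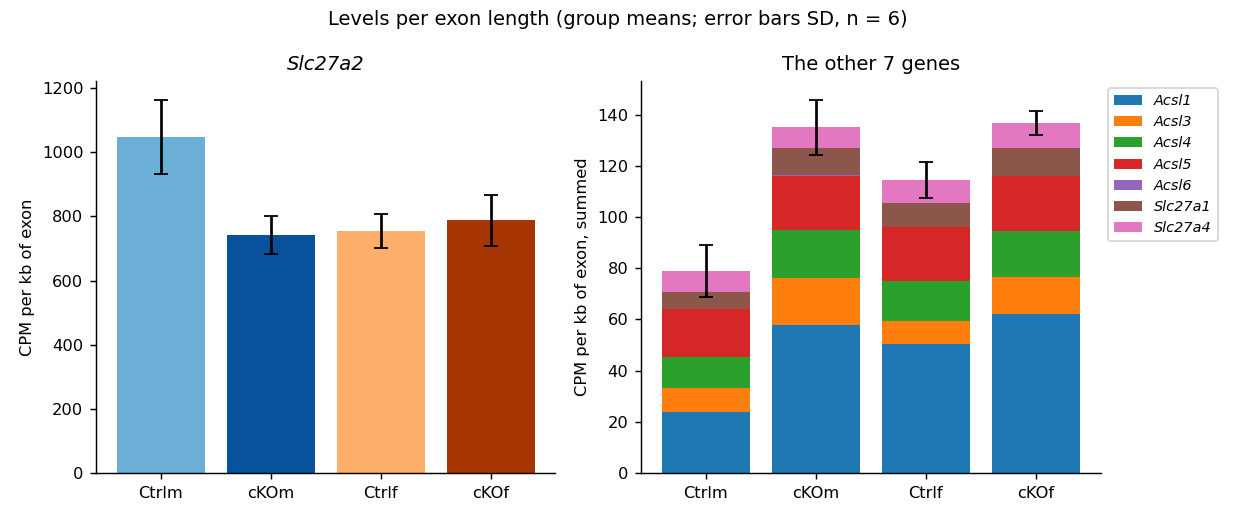
Mean level per exon length (CPM per kb, vertical axes from 0) of Slc27a2 (left) and of the other 7 transcripts stacked (right) in the 4 groups, with SD over 6 kidneys as error bars, on the right for the sum of the 7. Slc27a2 is highest in Ctrlm at 1048 CPM per kb, where the sum of the other 7 is lowest at 78.8.

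Slc27a2 made up 93 ± 1.12% of the summed CPM per kb of the 8 members in Ctrlm. In cKOm its share was 84.5 ± 1.69%, in Ctrlf 86.8 ± 1.26% and in cKOf 85.1 ± 1.37% (SD, n = 6). Acsl1 made up 2.13 ± 0.671%, 6.61 ± 0.873%, 5.83 ± 1.06% and 6.76 ± 0.788% in the same groups. The sum over the 7 members other than Slc27a2 was 78.8 CPM per kb in Ctrlm (69.7 to 98.2) and 135 in cKOm (122 to 150), beside 114 in Ctrlf (106 to 126) and 137 in cKOf (130 to 142). No Ctrlm kidney reached the lowest kidney of another group in this sum, and cKOf lay above Ctrlf without overlap. The sum over all 8, which Slc27a2 dominates, was 1127 ± 117 in Ctrlm and 877 ± 58.7 in cKOm, beside 869 ± 50.8 in Ctrlf and 925 ± 78.2 in cKOf. With the longest transcript as the length, the level was 1072 CPM per kb for Slc27a2 and 89.6 for Acsl1, Slc27a1 at 17.2 stood above Acsl4 at 16.5 and Acsl3 at 14, and the share of Acsl1 in Ctrlm was 3.04%.

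The genes whose levels followed each member most closely were taken as the 3 with the highest Pearson r of log2 CPM over the 24 kidneys, among 14072 tested genes with a mean of at least 1 CPM. These values describe the same kidneys that were compared above and carry the group differences, so r after removal of the group means is given second. For Acsl1 they were Cyp4a14, a fatty acid hydroxylase and target of PPAR-alpha (0.96 and 0.78), Elovl6, which elongates palmitate (0.96 and 0.79), and the peroxisomal thioesterase Acot3 (0.93 and 0.59). For Acsl3 they were Mmab of cobalamin metabolism (0.95 and 0.89), the hydroxylase Cyp4a31 (0.94 and 0.69) and the fatty acid desaturase Fads1 (0.92 and 0.76). The levels of Fads1 were 106 CPM in Ctrlm and 201 in cKOm, and 104 in Ctrlf and 132 in cKOf, so controls of both sexes were close, as for Acsl3.

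For Slc27a1 these genes included Cyp4a14 (0.90 and 0.62) and Bhlhb9 (0.89 and 0.60). For Slc27a2 they included Gm15895 (0.87 and 0.68) and Hyi, a hydroxypyruvate isomerase (0.87 and 0.42). Hyi was 61.3 CPM in Ctrlm and between 34.2 and 36.2 in the means of the other groups. For Acsl4 they were the scaffold gene Iqgap2 (0.91 and 0.78), the spectrin gene Sptan1 (0.90 and 0.78) and the ubiquitin ligase gene Rnf13 (0.89 and 0.79). The highest r was lower for Acsl6 (Zfp532, 0.81 and 0.65, then Arhgap33 and Cand2), Slc27a4 (Mpnd, 0.78 and 0.65, then Tuba4a and Vasp) and Acsl5 (the calpain gene Capn1, 0.70 and 0.60, then Stap1 and Klk1b5). Between members, r after removal of the group means was highest for Acsl1 and Acsl3 at 0.78 and lowest for Acsl4 and Slc27a4 at -0.70.

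Of 6 further acyl-CoA synthetases, 4 passed the filter and none of the 4 was called in males or females by edgeR, limma-voom or DESeq2. At an unadjusted p under 0.05 these tools gave 2, 1 and 2 in males and 0 each in females. Acsf3, a mitochondrial malonyl-CoA synthetase, was at 39.8 ± 5.10 CPM in Ctrlm against 33.9 ± 2.25 in cKOm, and at 36.9 ± 5.25 in Ctrlf against 33.7 ± 5.03 in cKOf. Slc27a3 lay between 3.18 and 5.40 CPM in the group means and Acsbg1 between 0.494 and 0.719. Slc27a5, the bile acid-CoA ligase of liver, was at 1.75 CPM in Ctrlm and between 0.317 and 0.603 in the other groups, and Ctrlm also had the highest hepatocyte markers. Slc27a6 and Acsbg2 did not reach 1 CPM in any kidney.

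The genes that supply, hydrolyse or use acyl-CoA were described by lists from general knowledge, beside the 9.05% of all genes called in males and 0.851% in females. The lists were drawn up with earlier results of these data known, so they are not independent of them. Of 13 tested genes of fatty acid uptake and binding, 3 were lower in males and 2 higher in females. In cKOm the fatty acid receptor Cd36 was lower with a log2 fold change of -0.72 (edgeR adjusted p = 0.00204), the acyl-CoA binding gene Acbd4 with -0.63 (0.00213) and lipoprotein lipase Lpl with -0.95 (0.00337). In cKOf the acyl-CoA binding protein gene Dbi was higher by 0.36 (0.0258) and the fatty acid carrier Fabp5 by 0.51 (0.0378). None of these 5 was called in the other sex, and for the interaction of genotype and sex edgeR called none of the 13, with 4 at an unadjusted p under 0.05. Limma-voom called none, with 3, and DESeq2 called 1, with 3.

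Thioesterases undo the reaction of the synthetases by releasing the fatty acid from coenzyme A. Of 12 tested, 6 were higher and 2 lower in males (median log2 fold change 0.43) and 4 were higher in females (median 0.18). The peroxisomal Acot3 was 16.2 ± 5.78 CPM in Ctrlm and 64.5 ± 8.32 in cKOm, and 64.9 ± 7.05 in Ctrlf and 127 ± 18.9 in cKOf (SD, n = 6). Its log2 fold change was 2.00 in males (edgeR adjusted p = 3.3e-09) and 0.96 in females (9.3e-05). The mitochondrial Acot2 rose by 1.48 in males (7.6e-08) and 0.61 in females (0.00745), and the cytosolic Acot1 by 1.30 (4.7e-06) and 1.06 (7.2e-05). The thioesterases Acot1 to Acot4 are close in sequence, so reads shared between them could be counted for the wrong one or not at all.

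Of 20 tested genes of mitochondrial import and oxidation, 7 were higher and 2 lower in males and 4 were higher in females. The acylcarnitine carrier Slc25a20 rose by 0.80 on the log2 scale in males (edgeR adjusted p = 3.1e-05) and 0.46 in females (0.0124). The thiolase Acaa2 rose by 0.82 (3.5e-05) and 0.57 (0.00244). The trifunctional protein gene Hadha rose by 0.35 in males (0.00105), with 0.07 in females (0.71).

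Of 16 tested genes of peroxisomal import and oxidation, 5 were higher and 3 lower in males, and 4 were higher and 1 lower in females. The racemase Amacr fell by 1.36 on the log2 scale in males (edgeR adjusted p = 3.2e-10), with -0.04 in females (0.903), and its interaction of genotype and sex was -1.32 (4.4e-07). The branched-chain oxidase Acox3 fell by 1.04 in males (1.2e-09) and 0.29 in females (0.0198), and the carnitine octanoyltransferase Crot fell by 1.07 in males (1.7e-08), with -0.09 in females (0.725). All 3 had their highest group mean in Ctrlm, with Amacr at 281 CPM in Ctrlm against 109, 72.2 and 70.3 in cKOm, Ctrlf and cKOf. The thiolase Acaa1b rose by 1.23 in males (2.4e-06) and 1.14 in females (8.4e-06). The acyl-CoA transporter Abcd3 rose by 0.50 (2.1e-04) and 0.42 (0.00146).

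**Figure D5:**
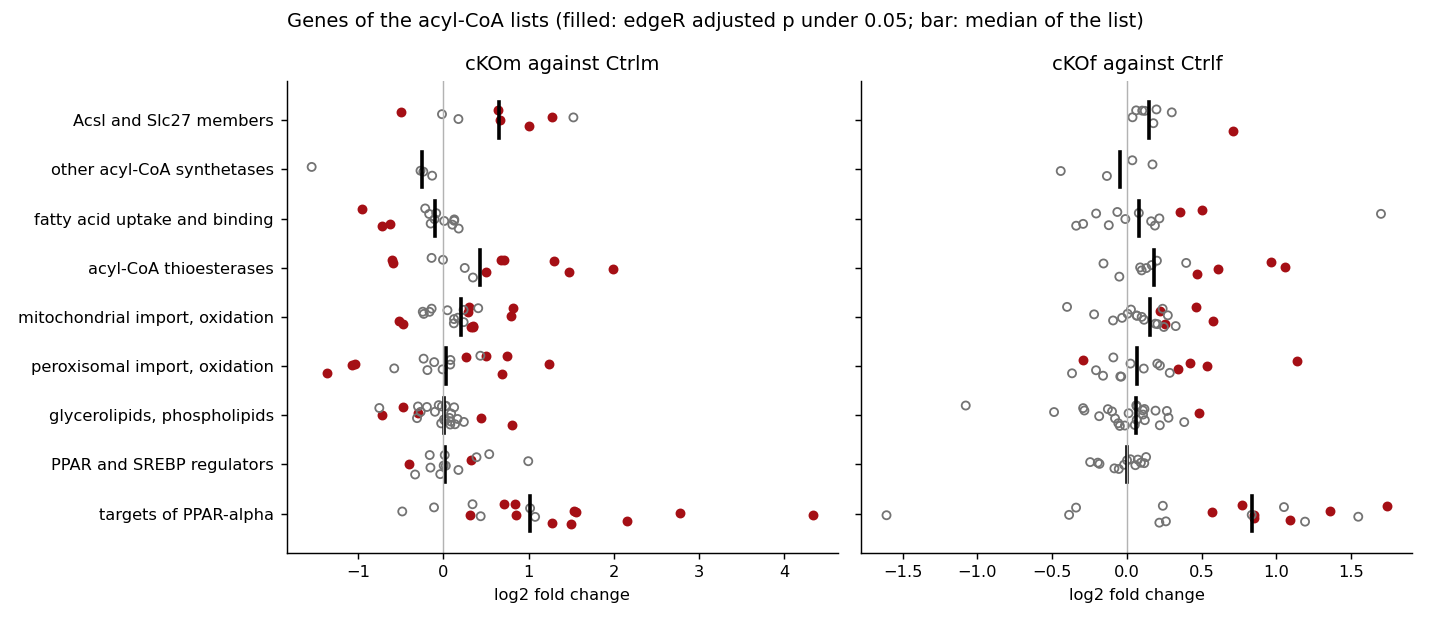
Log2 fold change (horizontal axes, with a wider range in the male panel) of every tested gene of the 8 members and 8 further lists in cKOm against Ctrlm (left) and cKOf against Ctrlf (right), filled for an edgeR adjusted p under 0.05, with a vertical bar at the median of each list. The targets of PPAR-alpha have the highest medians, 1.02 in males and 0.84 in females.

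Of 26 tested genes that build acyl-CoA into glycerolipids and phospholipids, 2 were higher and 3 lower in males and 1 was higher in females. Gpat3, the first acyltransferase of triglyceride synthesis, rose by 0.80 on the log2 scale in males (edgeR adjusted p = 2.7e-04), Lpcat3 of phospholipid remodelling rose by 0.44 (0.00683) and Agpat3 fell by 0.29 (0.00629). The monoacylglycerol acyltransferase Mogat1 was called in females, higher by 0.48 (0.0346), a call that limma-voom did not make for any gene of the list, and was lower in males with -0.47 (0.0335). Of 13 regulators, which include the PPAR and SREBP genes, Mlxipl was lower in males with -0.40 (0.00804) and Srebf2 higher with 0.32 (0.0348). In females none of the 13 was called by edgeR, limma-voom or DESeq2, and none had an unadjusted p under 0.05 by any of the 3. Of 17 tested targets of PPAR-alpha, none of them an acyl-CoA synthetase, 11 were higher in males and 7 in females, and none was called lower. Cyp4a31 rose by 1.5 in males (1.1e-08) and 0.85 in females (6.0e-05), the mitochondrial carrier Ucp2 by 1.28 (5.9e-07) and 0.85 (1.8e-04), and the pantetheinase Vnn1 by 0.85 (2.3e-05) and 0.77 (7.7e-05). Cyp4a14 rose by 4.33 in males (5.5e-06), and in females its log2 fold change was 1.55 (0.0674).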

How the data were processed

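Per the labels, libraries were made with TruSeq Stranded mRNA and processed by the authors with cutadapt 1.8, STAR 2.5.3a and HTSeq 0.9.1 on GRCm38. The deposited values are raw read counts per gene, 1 file per kidney. Percentages of reads are taken over those on genes, on no annotated feature, between overlapping genes or aligned to more than 1 place. Between 34% and 41.5% of these reads were not counted for a gene and were set aside. The highest value was that of cKOm 4, and the next was 36.1% in cKOm 2. Most of the reads set aside, 26.9% to 34.8% of reads, aligned to more than 1 place. Reads on no annotated feature made up 4.45% to 6.66%, and the rest could not be assigned between overlapping genes. Kidneys of a group differed by more than sampling noise (chi-square per degree of freedom 9.24 to 91.1 over 60 pairs). Names and positions came from GENCODE M21. Counts were fitted in R 4.3.3 with edgeR 4.0.16 (TMM, 1 model for the 4 groups, quasi-likelihood tests). Benjamini-Hochberg adjustment took the male and the female tests as 1 family, and the interaction and each comparison of sexes as a family of their own, with a threshold of 0.05. Log2 CPM values used a prior count of 2, and log2 fold changes came from the edgeR fit at its default setting. Single transcripts were compared by exact permutation tests. Alternatives were limma-voom (limma 3.58.1), DESeq2 1.42.0, other normalization, filters, adjustment and covariates, the replicate number as a block, and each mouse left out. The fit was tested on simulated data in which 200 genes had a log2 change of 1. It recovered 166 of them between cKOm and Ctrlm with 3 false calls among 15701 genes, and 160 between cKOf and Ctrlf with 1 among 15738.

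The members, the gene lists and the tests were chosen with earlier results of these data known. Named genes are the 8 members and Pex5, from each list at most the 3 genes of the smallest male p and the 2 of the smallest female p with an adjusted p under 0.05, all 4 tested genes of the further synthetases, and the 3 genes most like each member. A few of these are not reported here, though counts include them. Other markers and overlapping genes named were chosen after their values were seen. Labels do not say that same-numbered mice were littermates, and the correlation of same-numbered male kidneys was between -0.06 and 0.12, so mice were not paired. The labels give ZT9 for tissue collection and ZT3 for experiments, and which of them applies to these kidneys was not settled. Figures were drawn with matplotlib 3.10.9 in Python 3.11.15.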

Additional observations from a re-analysis of the deposited data

Results flagged for a closer look

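The change of Acsl1 and that of Slc27a2 differed between the sexes by the test of the interaction, where sex and the extent of deletion cannot be told apart. The male minus the female log2 fold change of Acsl1 was 0.97 (edgeR adjusted p = 0.00231), with cKOm above Ctrlm in 6 of 6 kidneys and 3 of 6 cKOf kidneys above every Ctrlf kidney. That of Slc27a2 was -0.56 (edgeR adjusted p = 0.00445), with 6 of 6 cKOm kidneys below every Ctrlm kidney. Without the 5 kidneys rich in hepatocyte transcripts, the Acsl1 difference was 0.74 and not called (edgeR adjusted p = 0.0899). The Slc27a2 difference was then -0.58 and was called (0.0357). Slc27a4 in Ctrlm 5, at 41.4 CPM, stood apart from the other 5 Ctrlm kidneys, with a gap to the nearest of 0.776 of the range of the group on the log2 scale. On that scale it was 1 of 32 groups of 6 values past Dixon's limit, and chance alone gives about 1 in 20. On the CPM scale the ratio was 0.793, and Slc27a2 in Ctrlm 3 also passed with 0.637.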

How the results depend on the processing

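Over the alternatives run, 5 or 6 members were called in males and 1, Acsl3, in females. The sixth was Acsl6, called by DESeq2 (adjusted p = 0.0307), with adjustment within each sex (0.038) and without Ctrlm 6 (0.0239). Leaving out 1 mouse at a time gave 5 to 6 members in males, 1 in females, 2 to 4 for the interaction, 3 to 5 between control sexes and 0 to 1 between knockout sexes. Without the 5 kidneys of highest liver score (Ctrlm 1 to 4 and cKOm 4) 1 member was called for the interaction and 2 between control sexes. With a liver score as covariate 3 were called between control sexes (Acsl4 at -0.30, adjusted p = 0.214) and 1 between knockout sexes, as with each genotype fitted alone. The replicate number as a block changed no call of a member. No pairing by number could be shown, since 1 of 6 male and 0 of 6 female same-numbered pairs correlated above 0.1 and 2 and 0 correlated best with their own number. With the block 1268 genes were called in males against 1456 without it, 110 against 137 in females and 271 against 372 for the interaction.

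Counts over all genes moved more. In males 820 genes were called with the liver score, 599 without the 5 kidneys and 1152 to 1473 with 1 mouse left out. In females 43 were called with adjustment within each sex, 83 without the 5 kidneys and 108 to 173 with 1 mouse left out. The interaction gave 574 genes by DESeq2 and 282 to 476 with 1 mouse left out. Between control sexes 1683 were called with the liver score, 1570 without the 5 kidneys and 2333 to 2775 with 1 mouse left out, and between knockout sexes 1040 to 1234. Of the male calls 667 were higher and 789 lower, against 443 and 797 when every gene with a count was tested. The causes of these shifts were not tested.

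Of 984 values of single members under an alternative, 957 kept direction and call. The 12 that changed sign were never called. For Slc27a4 in males the log2 fold change was 0.0022 with the liver score and between -0.0626 and 0.0291 with 1 mouse left out, above 0 without Ctrlm 5, cKOm 2 or cKOm 3. With 1 mouse left out, it ranged from -0.0234 to 0.0988 for Acsl5 in females, from -0.0629 to 0.261 for Acsl6 in females and from -0.0565 to 0.139 for Acsl3 between control sexes. Between knockout sexes it ranged from -0.0323 to 0.45 for Acsl6 and from -0.0768 to 0.0197 for Slc27a1.

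With the longest transcript as length, levels were 89.6 CPM per kb for Acsl1, 23.7 for Acsl5, 0.164 for Acsl6, 17.2 for Slc27a1 and 1072 for Slc27a2. The share of Slc27a2 was then 82.7% in cKOm, 85.0% in Ctrlf and 83.2% in cKOf, and that of Acsl1 3.04% in Ctrlm and 9.28% in cKOm, and 8.19% and 9.47% in Ctrlf and cKOf. Depth limited Acsl6, with 2 reads in the lowest kidney.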
